A study of Mus musculus with 7 samples.

Results

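Endothelial cells, the cells that line blood and lymph vessels, were picked out of single-cell RNA sequencing data of whole mouse noses at embryonic day 14.5 (E14.5). A cell was taken as endothelial when it held at least 1 UMI (unique molecular identifier, 1 captured transcript) of at least 3 of the 6 genes Pecam1, Cdh5, Kdr, Emcn, Cldn5 and Tie1, and no UMI of Ptprc, the gene of the leukocyte antigen CD45. Cells had been kept when they held at least 500 genes and at most 10% of UMIs from mitochondrial genes. By this rule 245 of 31465 kept cells were endothelial, 209 of them among the 28565 cells of wild-type (WT) captures. The members were thus chosen by their own counts of those genes, which are described without a test, and comparisons of endothelial with other cells describe how the chosen cells differ in genes the rule did not use.

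The WT libraries came from noses of CD1 IGS mice, and the protocol speaks of 5 noses without tying a nose to a library. The Prokr2Cre libraries came from 1 nose of genotype ProKR2iCre/R26tdTomato, with the allele Prokr2em1(cre)Cfe on B6;SJL and the reporter allele Gt(ROSA)26Sortm14(CAG-tdTomato)Hze/J, in which Cre recombinase made from the Prokr2 locus switches on a red fluorescent reporter. Per the protocol that nose gave a sorted and an unsorted suspension, the labels do not say which library is which, and both are described apart from each other and are not replicates. Tissue was digested by papain plus collagenase, and the cells were frozen and thawed before capture. No gate in the WT libraries selected vessels. WT replicate 3 was left out because it shares 7386 barcodes with replicate 4, while all other library pairs had 34 barcodes or fewer in common, which leaves 4 WT captures named WT 1, WT 2, WT 4 and WT 5. Nothing says that these 4 came from separate animals, so p-values measure the spread between captures, which may be technical.

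Endothelial cells share a set of adhesion molecules, receptors for vascular endothelial growth factor (VEGF) and angiopoietins, and transcription factors of the ETS and SOXF families. Arteries use Notch signalling and the transcription factor Sox17, veins use the nuclear receptor Nr2f2, and lymphatic vessels bud from veins once the homeobox factor Prox1 is switched on. In the nose the vessels supply a mucosa that warms air and feeds a sensory epithelium, and around them lie pericytes, the contractile cells of the vessel wall.

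Endothelial cells made up 1.44% of kept cells in WT 1 (112 of 7790, exact 95% binomial interval 1.19 to 1.73). The share was 0.495% in WT 2 (52 of 10496, 0.370 to 0.649), 0.398% in WT 4 (28 of 7029, 0.265 to 0.575) and 0.523% in WT 5 (17 of 3250, 0.305 to 0.836). WT 1 lay above the other 3 captures, whose intervals overlapped each other. The mean was 0.714 ± 0.486% (SD, n = 4) and fell to 0.472% without WT 1. The intervals cover counting error only. The shares are of cells recovered, and how well vessels came through dissociation was not measured.

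Libraries held 16773781 to 89800259 UMIs in all. Endothelial cells were deeper than the other kept cells of their capture, with medians of 21539.5 against 8980 UMIs in WT 1, 15104 against 5074 in WT 2, 8152 against 5829 in WT 4 and 12231 against 11266 in WT 5. The rule needs detected genes, and whether it favours deeper cells was not tested. Comparisons below use counts per 1000000 UMIs of the summed cells of a class (CPM). WT 1 was counted with Cell Ranger 6.0.1 and the other WT libraries with 7.0.0, per the file headers, which do not say whether intronic reads were counted. The number of genes listed also differed, at 31053 in WT 1 and WT 4 and 32285 in WT 2 and WT 5. Values without WT 1 therefore stand for libraries counted with 1 version, though not with 1 set of listed genes. They are given where they change a statement.

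Few cells lay near the threshold. Among kept cells without Ptprc, 29492 held no UMI of the 6 genes, 1444 held 1 and 71 held 2. Just inside the threshold, 18 cells held 3 of the genes, then 22 held 4, 49 held 5 and 156 held all 6. Of 26 other endothelial genes, cells with 2 rule genes held a median of 2, cells with 3 held 6 and cells with all 6 held 22. Median depth was 6932, 9789 and 9409 UMIs in cells with 0, 1 and 2 rule genes. It was 4553.5, 3991, 9966 and 29480 UMIs in cells with 3, 4, 5 and 6. The condition on Ptprc removed 0 cells. Each rule gene was also frequent in cells that the other 5 genes would have chosen: Cdh5, the cadherin of endothelial junctions, in 225 of 235 (95.7%), Cldn5 in 222 of 234 (94.9%), Pecam1 in 216 of 236 (91.5%), Kdr, the main VEGF receptor, in 217 of 237 (91.6%), Emcn in 205 of 230 (89.1%) and Tie1 in 184 of 244 (75.4%).

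**Figure D1:**
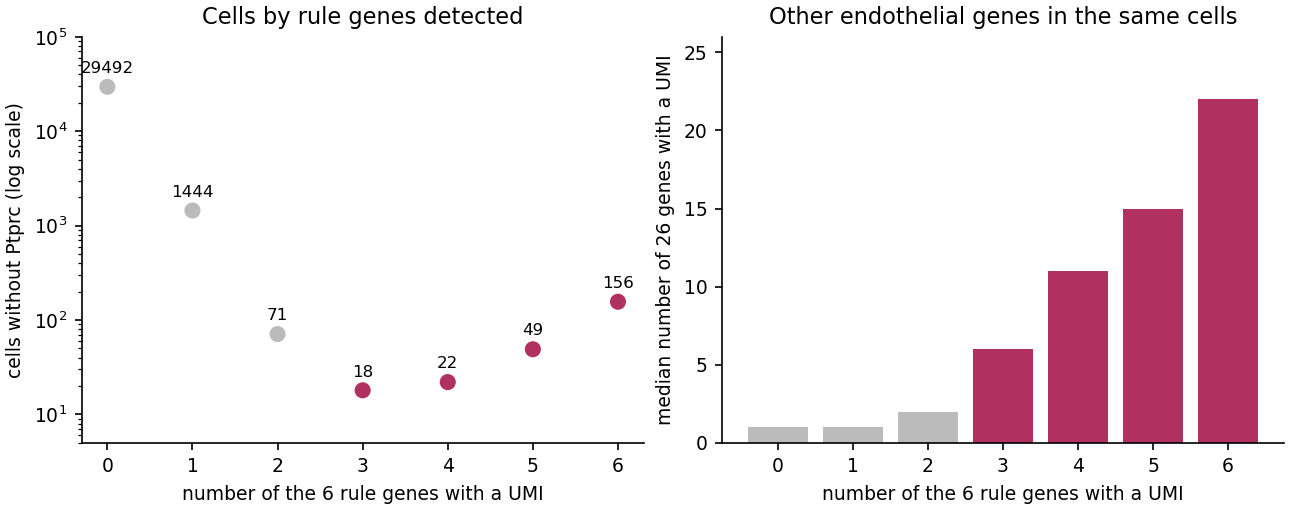
Left, number of kept cells without Ptprc (log axis) by the number of the 6 rule genes with at least 1 UMI, with the chosen cells (3 or more) in red; right, bars of the median number of 26 other endothelial genes with a UMI in the same cells. Counts fall from 29492 to 18 and rise again to 156 at all 6 genes, while the median climbs from 2 at 2 rule genes to 6 at 3 and 22 at 6.

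In endothelial cells Cdh5 stood at 485 CPM in WT 1, 721 in WT 2, 953 in WT 4 and 928 in WT 5, against 0.467 to 2.18 in all other kept cells. Emcn, a sialoglycoprotein of capillary and venous endothelium, stood at 482, 887, 731 and 997 CPM in the same order, against 3.73 to 10.1. Tie1, an orphan receptor of the angiopoietin system, was the lowest of the 6 at 131, 115, 145 and 143 CPM. These values restate the choice of cells and carry no test.

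The label was checked against genes the rule did not use. For each comparison, UMIs were summed per class and capture and fitted with edgeR over all genes, with the capture as a block. Fold changes below are log2 values. The value after ± is an approximate standard error (SE), the size of the fold change divided by the square root of the F statistic of its test. It was not estimated separately, and for genes near absent from a class it does not give the uncertainty of the fold change. A gene was called at a Benjamini-Hochberg adjusted p under 0.05. Of 26 general endothelial genes, 26 were called higher in endothelial cells than in all other kept cells and 0 lower, beside 14.2% called higher and 28.4% called lower (42.6% in all) among all 15045 genes tested. The median log2 fold change was 7.11 for the list and −0.28 over all genes tested. The shares over all genes apply to each list count of this comparison below. The lists share some members, so their counts are not separate from each other.

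Egfl7, a secreted factor of the vessel wall, stood at 959 CPM in WT 1, 906 in WT 2, 718 in WT 4 and 894 in WT 5, against 12.0 to 21.2 in other cells. Its log2 fold change was 5.83 ± 0.17 (adjusted p = 1.86e-16). Flt1, the decoy VEGF receptor, stood at 222, 335, 720 and 466 CPM against 1.66 to 4.72, a log2 fold change of 7.32 ± 0.24. For both genes every endothelial value lay far above every value of the other cells. Tek, the receptor of the angiopoietins, stood at 91.7, 190, 282 and 212 CPM against 1.41 to 1.84 (6.89 ± 0.22). Plvap, the protein of the diaphragms of fenestrae and caveolae, stood at 238, 551, 312 and 537 CPM against 0.497 to 3.99 (8.31 ± 0.46). Robo4, Sox7 and Myct1 were close to absent elsewhere, with log2 fold changes of 10.99, 10.61 and 10.67.

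Erg, an ETS factor that keeps endothelial identity, was the weakest of the list. It stood at 17.5 CPM in WT 1, 66.1 in WT 2, 63.0 in WT 4 and 87.3 in WT 5, against 4.97, 47.0, 31.5 and 63.2 in other cells (1.04 ± 0.21, adjusted p = 0.000361). The 2 classes overlapped across captures although the endothelial value was higher within each capture. Its partner Fli1 showed a wider gap, at 66.0, 215, 337 and 209 CPM against 5.08 to 31.4 (3.35 ± 0.17).

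The stretch just before the start site of some of these genes is printed to show how often the core AGGAAG, a sequence that ETS factors such as Erg and Fli1 can bind, occurs there. Windows of 250 bases before the annotated start come from RefSeq (GRCm38.p6), which gave a window for 13 of the 26 general genes and 4 of the 6 rule genes. They are written 5′ to 3′ on the strand of the gene, and capitals mark AGGAAG or its reverse complement CTTCCT. Egfl7 lies at chr2:26580833-26581082 on the plus strand, Emcn at chr3:137340828-137341077 on the plus strand, Eng, the gene of the TGF-beta co-receptor endoglin, at chr2:32646345-32646594 on the plus strand, Flt1 at chr5:147726012-147726261 on the minus strand and Cldn5 at chr16:18776597-18776846 on the plus strand.
Egfl7: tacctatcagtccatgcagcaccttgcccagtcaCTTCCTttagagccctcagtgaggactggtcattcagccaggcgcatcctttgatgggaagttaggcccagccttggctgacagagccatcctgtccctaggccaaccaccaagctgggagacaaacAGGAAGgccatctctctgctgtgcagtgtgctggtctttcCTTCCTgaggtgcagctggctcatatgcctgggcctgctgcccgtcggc
Emcn: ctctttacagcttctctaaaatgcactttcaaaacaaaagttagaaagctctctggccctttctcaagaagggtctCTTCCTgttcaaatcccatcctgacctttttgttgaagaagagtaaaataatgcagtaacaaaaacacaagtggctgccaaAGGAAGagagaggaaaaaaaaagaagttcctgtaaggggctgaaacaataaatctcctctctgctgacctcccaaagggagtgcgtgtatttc
Eng: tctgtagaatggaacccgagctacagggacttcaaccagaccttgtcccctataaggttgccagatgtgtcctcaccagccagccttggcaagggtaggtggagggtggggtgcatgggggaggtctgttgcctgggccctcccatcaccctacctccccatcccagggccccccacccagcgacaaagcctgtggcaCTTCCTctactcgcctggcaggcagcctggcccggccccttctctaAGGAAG
Flt1: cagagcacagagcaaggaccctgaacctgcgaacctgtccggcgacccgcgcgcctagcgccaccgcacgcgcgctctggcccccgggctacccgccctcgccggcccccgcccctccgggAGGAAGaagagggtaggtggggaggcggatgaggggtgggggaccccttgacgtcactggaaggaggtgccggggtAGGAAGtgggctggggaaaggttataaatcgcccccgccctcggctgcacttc
Cldn5: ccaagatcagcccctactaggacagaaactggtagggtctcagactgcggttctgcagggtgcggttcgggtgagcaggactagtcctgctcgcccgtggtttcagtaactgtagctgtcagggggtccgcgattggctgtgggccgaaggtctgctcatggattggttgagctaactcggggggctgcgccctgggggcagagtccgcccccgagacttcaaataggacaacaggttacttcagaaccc
Egfl7 holds the core at 3 places, 216, 89 and 49 bases before the start, and its gene lists 3 starts in RefSeq. Emcn holds it at 174 and 93 bases before the start, Flt1 at 129 and 53 and Eng at 52 and 6, and the Cldn5 window holds none. The first 4 windows were printed because they hold the core more than once. Of the 13 general genes with a window, 8 (61.5%) held the core on either strand, and of 18 vascular transcription factors with a window 5 (27.8%). The share was 27.4% over all 11479 tested genes with a window, 32.8% of 1679 called higher and 24.7% of 3212 called lower. A match describes letters in a window and is not evidence of binding.

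Of 28 tested transcription factors of the vascular lineage, 22 were called higher and 0 lower, with a median log2 fold change of 2.51. The haematopoietic and endothelial factors Tal1 (6.54), Lmo2 (5.68), Lyl1 (4.97) and Hhex (6.28) were among them, as were the ETS factors Ets1 (3.75) and Elk3 (3.00) and the homeobox factors Meox1 (3.27) and Meox2 (2.88). Sox18, a SOXF factor of lymphatic budding, was uneven between captures at 13.5 CPM in WT 1, 158 in WT 2, 30.1 in WT 4 and 201 in WT 5, against 0.132 to 6.96 in other cells (4.72 ± 0.33). The low captures WT 1 and WT 4 list 31053 genes and the high captures WT 2 and WT 5 list 32285. Whether this plays a part was not tested. The members that were not called were Gata2, Klf4, Foxc1, Foxc2, Lef1 and Tfec. Without WT 1, 22 were again called higher and 2 lower.

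Arterial genes were high in the endothelial cells as a whole. Of 7 genes later used to gate arterial cells, 6 were called higher and 0 lower, with a median log2 fold change of 6.17. Sox17, which specifies arterial fate, stood at 167 CPM in WT 1, 144 in WT 2, 82.2 in WT 4 and 95.2 in WT 5, against at most 0.130 in other cells (11.01 ± 0.30, adjusted p = 1.11e-16). Gja4, the gap junction protein connexin 37, stood at 191, 37.1, 153 and 965 CPM against 0.373 to 2.20 (7.60 ± 0.54). WT 5 was the high capture for Gja4 and WT 2 the low one, yet all 4 lay above the other cells. Gja5, connexin 40, had 33.3 CPM in WT 1, no UMI in WT 2, 98.6 CPM in WT 4 and 42.3 in WT 5 (6.17 ± 0.65). Dll4, the Notch ligand of arteries and tip cells, stood at 32.4, 23.0, 46.6 and 76.7 CPM against 0.186 to 0.389 (7.20 ± 0.36). The Notch target Hey1 was the member not called, at 16.4, 9.02, 8.22 and 42.3 CPM against 16.7 to 28.2 (−0.30 ± 0.33, adjusted p = 0.483).

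Of 14 further arterial genes tested, 11 were called higher and 2 lower, with a median log2 fold change of 2.17. Efnb2, the ephrin that marks arteries, stood at 69.7, 91.2, 271 and 204 CPM in WT 1, 2, 4 and 5, against 20.5 to 58.5 in other cells (1.88 ± 0.16). The receptors Notch1 (2.13), Notch4 (4.38), Nrp1 (2.36) and Unc5b (3.24) were higher, and so were the hypoxia factor Epas1 (5.62), the ligand Jag2 (2.68) and the tetraspanin-like Tm4sf1 (4.62). The lower members were the extracellular matrix gene Fbln2 (−1.63) and the Notch target Hey2 (−1.41, adjusted p = 0.0261), and Hey2 reached an adjusted p of up to 0.11 when WT captures were left out in turn. Jag1 was not called (0.29, adjusted p = 0.462).

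Venous genes were split between genes specific to vessels and genes that other nose cells also carry. Of 13 tested, 8 were called higher and 2 lower, with a median log2 fold change of 1.16. Aplnr, the apelin receptor of veins and venous capillaries, stood at 135 CPM in WT 1, 202 in WT 2, 192 in WT 4 and 132 in WT 5, against at most 0.0843 in other cells (11.43 ± 0.29, adjusted p = 6.99e-17). Vwf, the clotting factor stored in endothelial granules, stood at 40.3, 53.1, 82.2 and 66.1 CPM against 0.650 to 0.857 (6.38 ± 0.26). Both genes separated the classes in each capture.

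Nr2f2, the nuclear receptor that sets venous fate, stood at 51.9, 149, 241 and 161 CPM against 37.0, 63.6, 77.0 and 55.4 in other cells (1.29 ± 0.17, adjusted p = 4.04e-06), and the ranges of the classes overlapped. The ephrin receptor Ephb4 (1.12 ± 0.17) and the co-receptor Nrp2 (1.01 ± 0.17) overlapped too. Tll1, a metalloprotease gene, ranged from 3.38 CPM in WT 1 through 40.1 in WT 2 and 87.7 in WT 4 to 238 in WT 5 (2.68 ± 0.32), where all 90 UMIs came from 1 of the 17 endothelial cells. In WT 4, Tll1 was found in 4 of 28 cells. The top cell of WT 5 for Vwf held 23 of its 25 UMIs, and the top cell for Nr2f2 held 40 of its 61. One cell likewise held 201 of 377 Emcn, 47 of 80 Tek, 28 of 41 Procr and all 19 Bmp4 UMIs of WT 5. The lower members were the proteoglycan Bgn (−0.83) and the adhesion molecule Vcam1 (−1.77). The chemokine sink Ackr1 was not called (1.35, adjusted p = 0.108).

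Lymphatic genes gave a mixed picture. Of the 5 used to gate lymphatic cells, 3 were called higher and 1 lower. Flt4, the receptor of VEGF-C, stood at 44.0 CPM in WT 1, 51.1 in WT 2, 68.5 in WT 4 and 58.2 in WT 5, against at most 0.260 in other cells (8.72 ± 0.33). Mmrn1, a multimerin, stood at 55.0, 83.2, 79.4 and 47.6 CPM against at most 0.319 (9.08 ± 0.34). Prox1, the factor that sets lymphatic fate, stood at 14.7, 19.0 and 10.96 CPM in WT 1, 2 and 4 and had no UMI in WT 5, against 1.84 to 3.71 (2.28 ± 0.41, adjusted p = 0.000143). Thus Flt4 and Mmrn1 were found in each capture and Prox1 in 3 of 4. Lyve1, the hyaluronan receptor of lymphatic capillaries and of some macrophages, was almost absent from the chosen cells, at 0.282 CPM in WT 1, 2.00 in WT 2 and no UMI in WT 4 and WT 5, against 1.73 to 9.46 in other cells. It was called lower (−3.38 ± 0.80), with an adjusted p of up to 0.31 when captures were left out in turn. Of 245 endothelial cells, 3 held a Lyve1 UMI, 35 held Prox1 and 1 held both.

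Of 15 further lymphatic genes, 6 were called higher and 6 lower, with a median log2 fold change of −0.37, and without WT 1 the counts were 4 and 7 of 14. The transcription factor Tbx1 (4.03), the scavenger receptor Stab1 (3.34) and the mechanosensor Piezo2 (2.29) were higher. Pdpn (−1.95), Maf (−2.04) and Ptx3 (−1.16) were lower, genes that other nose cells carry at higher levels. Pdpn, the podoplanin that keeps lymph and blood apart, stood at 4.23 and 4.01 CPM in WT 1 and WT 2, with no UMI in WT 4 and WT 5, against 7.93 to 16.0.

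**Figure D2:**
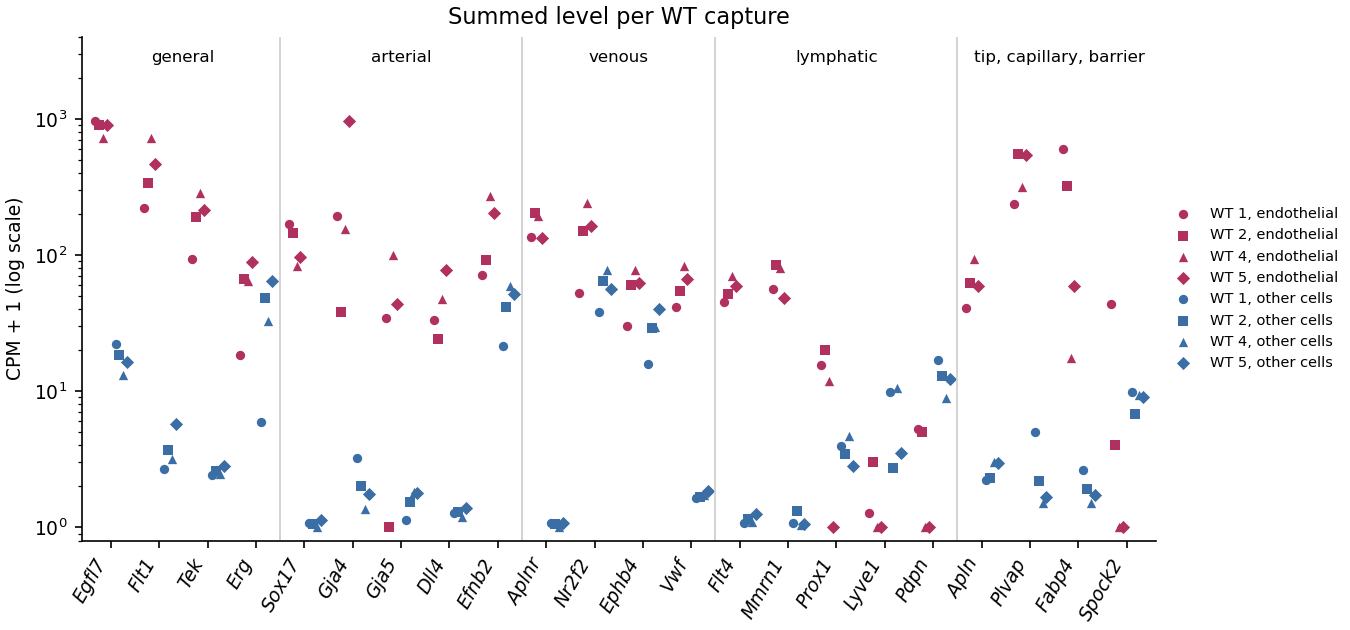
Level of selected general, arterial, venous, lymphatic and capillary genes in endothelial cells (red) and all other kept cells (blue), as CPM + 1 on a log axis, with 1 marker shape per WT capture. Egfl7, Sox17, Aplnr, Flt4 and Mmrn1 are apart in every capture, Erg and Nr2f2 overlap, and Lyve1 and Pdpn lie lower in endothelial cells.

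How many cells carried a gene was compared after each cell was thinned to 2000 UMIs, which left out 4 of 209 WT endothelial cells and 61 of 2741 WT cells gated as epithelial, a type that should lack vessel genes. Median depth before thinning was 16811 UMIs in the endothelial and 10688 in the epithelial cells. After thinning, the share of endothelial cells with Egfl7 was 73.1% to 82.4% over the 4 captures (78.0% of all, 96.7% before thinning), against 1.11% to 3.79% of epithelial cells (2.95% of all, 16.9% before). Aplnr was found in 23.5% to 40.7% of endothelial cells and Sox17 in 14.8% to 26.6%. Gja4 was found in 9.62% to 41.2% and Flt4 in 7.34% to 17.6%. In epithelial cells these 4 genes were found in at most 0.112% of the cells of a capture, and Sox17 in 0 of 2680 after thinning (exact upper bound 0.138%) and 1 of 2741 before. In each of the 4 captures the endothelial share of all 5 genes was thus the higher. Nr2f2 was found in 5.50% of endothelial cells of WT 1 against 5.13% of its epithelial cells, and in 23.5% to 30.8% against 4.77% to 9.66% in the other captures. Prox1 was found in 1.83%, 5.77%, 3.70% and 0% of endothelial cells of WT 1, 2, 4 and 5 against 0.558%, 1.15%, 4.72% and 1.45% of epithelial cells, so its share by itself does not set the classes apart at this depth. Cells of a capture are not replicates, and these shares carry no test.

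Genes of sprouting tip cells were mostly higher, 14 of 16 tested with 0 lower and a median log2 fold change of 3.16. Apln, the ligand of the apelin receptor, stood at 40.1 CPM in WT 1, 61.1 in WT 2, 93.1 in WT 4 and 58.2 in WT 5, against 1.22 to 2.01 in other cells (5.35 ± 0.24). Esm1, a proteoglycan of tip cells (7.48), and Pdgfb, the growth factor that recruits pericytes (6.96), were near absent elsewhere. Angpt2 (0.95, adjusted p = 0.0688) and Pgf (1.09, adjusted p = 0.0576) were not called.

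In the VEGF pathway 9 of 14 genes were called higher and 2, the ligands Vegfa and Vegfb, lower. Vegfa, the main ligand, stood at 3.67, 4.01 and 2.65 CPM in WT 1, 2 and 5 and had no UMI in WT 4, against 29.3 to 43.3 in other cells (−3.14 ± 0.32). Vegfb was lower too (−1.40), while Vegfc, the lymphatic ligand, was higher (1.18). Downstream genes Nos3, the endothelial nitric oxide synthase (4.41), and Dusp6, a feedback phosphatase (2.42), were higher.

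In the angiopoietin system 3 of 6 genes were called higher and 2 lower. Angpt1, the ligand of Tek, stood at 3.38 CPM in WT 1 and 1.00 in WT 2, with no UMI in WT 4 and WT 5, against 32.1 to 84.5 in other cells (−4.08 ± 0.36). Svep1, a matrix protein that binds the receptor Tie1, was lower (−3.69), and the forkhead factor Foxo1 was higher (1.90). Tek, given above, and its phosphatase Ptprb (8.07) were the other higher members.

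Of 18 Notch genes, 8 were called higher and 6 lower, beside 14.2% and 28.4% of all genes tested, with a median of 0.09. Ligands and receptors of vessels (Dll4, Jag2, Notch1, Notch4) and the modifiers Mfng (4.17) and Nrarp (2.83) were higher, while Notch2 (−2.31), Notch3 (−1.91) and the mediator Rbpj (−0.91) were lower. Of the targets, Hes1 was not called (−0.11, adjusted p = 0.605). In the BMP and TGF-beta pathways 6 of 18 genes were called higher and 10 lower, with a median of −0.97. The endothelial receptors Acvrl1 (4.38), Eng (4.33) and Tgfbr2 (2.17), the ligand Tgfb1 (3.48) and the mediator Smad1 (1.57) were higher. The ligands Bmp2 (−1.25), Bmp4 (−1.33) and Bmp6 (−4.65) and the inhibitor of differentiation genes Id1 (−1.17) and Id2 (−1.62) were lower, and Id3 was not called (−0.00, adjusted p = 0.989).

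Of 21 axon guidance genes, 12 were higher and 8 lower, beside 14.2% and 28.4% of all genes tested. Plxnd1, the semaphorin receptor of vessels, stood at 236 CPM in WT 1, 299 in WT 2, 510 in WT 4 and 399 in WT 5, against 5.50 to 9.01 (5.65 ± 0.18). The ephrin Efna1 (3.53) and its receptor Epha2 (2.98) were higher. The secreted cues Slit2 (−3.41), Slit3 (−3.88), Sema3c (−3.58), Sema3e (−3.34) and Ntn1 (−2.34) were lower, as was the receptor Robo1 (−1.24).

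Of 19 junction genes, 11 were higher and 3 lower. The endothelial adhesion molecules Esam (8.39) and F11r (3.77) and the scaffold Tjp1 (2.37) were higher, the epithelial members Cgn (−2.94) and Cldn3 (−3.40) were lower, and connexin 43, Gja1, was not called (−0.28, adjusted p = 0.174). Of 18 basement membrane genes, 16 were higher and 0 lower, with a median of 2.03. Col4a1, a chain of the main collagen of basement membranes, stood at 1034 CPM in WT 1, 858 in WT 2, 2033 in WT 4 and 1124 in WT 5, against 76.1 to 134 (3.60 ± 0.16). Col15a1 (5.00), Col18a1 (4.86) and the laminin receptor Itga6 (3.82) were higher, while the laminin chains Lama5 and Lamb2 were not called.

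Of 16 genes of flow sensing and vessel tone, 15 were higher and 0 lower. Klf2, a factor induced by flow, stood at 742, 814, 359 and 164 CPM in WT 1, 2, 4 and 5, against 58.2 to 295 (2.14 ± 0.22), and WT 5 fell within the range of other cells. The vasoconstrictor endothelin, Edn1 (5.93, found in 1 cell of WT 5), the anticoagulant receptor Procr (5.80), the sialomucin Podxl (5.63) and the flow sensor Piezo1 (2.45) were higher. Of 14 adhesion and immune genes, 10 were higher and 2 lower. The class I antigen gene H2-K1 stood at 174, 100, 46.6 and 233 CPM against 5.36 to 22.6 (3.44 ± 0.22), and the chemokine Cxcl12 was lower (−1.72).

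Genes of fenestrated and exchange capillaries were high, 9 of 11 tested called higher and 1 lower, with a median log2 fold change of 4.33. Of the higher members, Plvap, Aplnr and Apln also belong to the general, venous and tip cell lists, in that order. Gpihbp1, which carries lipoprotein lipase across capillaries, stood at 132 CPM in WT 1, 86.2 in WT 2, 43.8 in WT 4 and 101 in WT 5, against at most 0.0621 in other cells (11.97 ± 0.36). The fatty acid binding protein Fabp4 stood at 597, 318, 16.4 and 58.2 CPM (7.84 ± 0.42), so WT 1 and WT 2 lay far above WT 4 and WT 5, and 1 cell of WT 2 held 208 of its 317 UMIs. Lpl, the lipase that Gpihbp1 carries, was lower (−2.60).

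Of 14 genes of barrier vessels, as in the brain, 6 were higher and 3 lower, beside 14.2% and 28.4% of all genes tested. Their median was 0.71, and without WT 1 the counts were 4 of 13 higher and 5 lower. Spock2 stood at 42.3 CPM in WT 1 and 3.01 in WT 2, with no UMI in WT 4 and WT 5 (0.93, adjusted p = 0.162). Mfsd2a, the lipid transporter of the blood-brain barrier, stood at 18.9 and 1.00 CPM with no UMI in WT 4 and WT 5 (1.82, adjusted p = 0.0444), with an adjusted p of up to 0.34 when captures were left out in turn. Without WT 1 the direction turned for both, to −1.86 for Spock2 and −1.87 for Mfsd2a. Slco1c1, a thyroid hormone transporter, stood at 16.6, 3.01 and 5.29 CPM in WT 1, 2 and 5, had no UMI in WT 4 and was too low to be tested. WT 1 was thus the high capture for all 3. Of the cells with a UMI, 8 of 9 for Mfsd2a, 13 of 17 for Slco1c1 and 12 of 15 for Spock2 were from WT 1. At least 2 of the 3 genes were found in 9 cells of WT 1 and 1 of WT 2. The glucose transporter Slc2a1 was higher without such a split, at 71.1, 101, 121 and 183 CPM (1.12 ± 0.17).

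Cell cycle genes were mostly not called. Of 20 cell cycle genes, 1 was called higher and 0 lower, with a median log2 fold change of 0.17, and without WT 5 the count was 7 higher. Cdk1, the kinase that drives mitosis, was the called member (0.68 ± 0.14). Mki67, a marker of cycling cells, stood at 95.3 CPM in WT 1, 67.1 in WT 2, 230 in WT 4 and 58.2 in WT 5 (17 of 22 UMIs in 1 cell), against 68.7, 82.3, 162 and 65.1 in other cells (0.27, adjusted p = 0.193). After thinning, 10.1% to 29.6% of endothelial and 10.6% to 20% of epithelial cells of a WT capture held a Mki67 UMI, highest in WT 4 for both.

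The prokineticins, ligands that act on endothelium in some tissues, and their receptors were scarcely found. Of 245 endothelial cells, 1 held a UMI of Prokr2 and 4 held Prokr1, and Prok1 and Prok2 had no UMI in the WT endothelial sums. Prokr1 was the 1 member that could be tested and was not called (−0.95, adjusted p = 0.4).

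Genes outside the lists were named by size of change. The 20 largest included the protease inhibitor gene Ctla2a at 472, 467, 326 and 426 CPM in WT 1, 2, 4 and 5 (9.92 ± 0.40), and the caveolar coat protein Cav1 at 385, 495, 342 and 508 CPM (6.29 ± 0.19). The small GTPase genes Gimap4 (9.03), Gimap1 (8.27) and Gimap6 (6.86), the natriuretic peptide receptor Npr1 (6.84) and Rasgrp3, an exchange factor for Ras (8.68), were among them. The rest were Fam167b (9.11), Klhl4 (8.85), Thsd1 (7.18), Tmem255a (6.37), Grrp1, Arap3, Dysf, Gngt2, Fgd5, S100a16, Afap1l1, Arhgap18 and Tinagl1 (4.99). The 5 largest lower were Sostdc1 (−4.50), Lgals7 (−4.38), Alx1 (−4.33), Ptn (−4.23) and Gpc6 (−4.13), of which Alx1 is a factor of the facial mesenchyme.

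**Figure D3:**
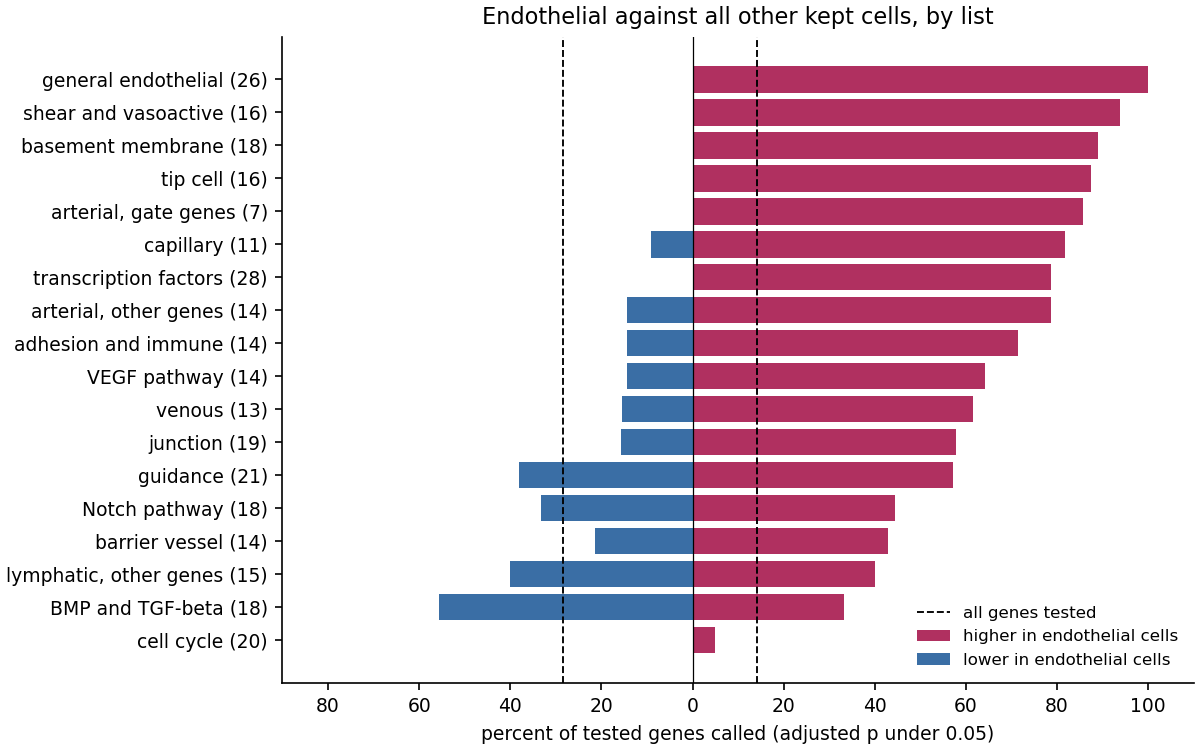
Percent of the tested genes of 18 lists of vascular, signalling and cell cycle genes called higher (red, to the right) or lower (blue, to the left) in endothelial than in all other kept cells, with the number tested in brackets. Dashed lines mark the shares over all genes tested, 14.2% higher and 28.4% lower; general, basement membrane and vasoactive genes are nearly all to the right, and among the lists shown BMP and TGF-beta genes reach furthest to the left.

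Most marker genes of other nose cells were lower in the endothelial sums, while some of the cells carried several of them. All 10 mesenchyme, 8 cartilage, 6 bone and 8 epithelium genes tested were called lower, with medians of −3.62, −2.44, −4.07 and −4.32, and so were 6 of 7 neuron and 7 of 7 glia genes. The summed mesenchyme list stood at 29.1 to 636 CPM in endothelial cells against 3910 to 5379 in other cells, and the epithelium list at 0 to 38.9 against 337 to 767. The macrophage list stood at 41.1 to 73.1 CPM against 104 to 241, with 8 of 11 genes lower. In WT 1, 35 of the 112 endothelial cells held at least 3 mesenchyme genes, 12 held at least 3 macrophage genes and 8 at least 3 epithelium genes. In WT 2 these were 6, 1 and 1 of 52 cells, in WT 4 they were 4, 0 and 0 of 28, and in WT 5 2, 0 and 0 of 17. Prokr2Cre library 1 had 5, 0 and 1 of 34. At least 3 erythroid genes were held by 15 cells of WT 1, and at least 3 glia genes by 7. Doublets were kept. The pericyte gate gene Abcc9 was called higher in endothelial cells (1.34 ± 0.37, adjusted p = 0.00645), while 3 of the 5 pericyte gate genes tested were called lower. The macrophage-defining genes C1qb, C1qc and Adgre1 had no UMI in the WT endothelial sums, and Laptm5 was higher (1.68). Globin and other erythroid genes stood at 176 to 10448 CPM against 841 to 5149, and muscle genes at 13.2 to 96.5 against 15.6 to 118. For the last 2 lists the classes overlapped, and their part in any result was not tested.

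Against pericytes, the nearest neighbours in the vessel wall, the endothelial genes stood apart again. Pericyte-gated cells held at least 3 of Rgs5, Kcnj8, Abcc9, Notch3, Cspg4 and Higd1b and at most 1 rule gene, and there were 263 of them, of which 112 were from WT 1, 61 from WT 2, 34 from WT 4, 29 from WT 5 and 15 and 12 from the Prokr2Cre libraries. Of 24 general genes tested, 24 were higher in endothelial cells and 0 lower, beside 14.3% higher and 12.4% lower (26.6% in all) among 6985 genes tested. Aplnr stood at 135, 202, 192 and 132 CPM against 0.580 in the pericyte-gated cells of WT 1 and no UMI in the others (8.55). Sox17, Sox7, Flt4, Mmrn1, Gpihbp1, Dll4 and Apln had no UMI in pericyte-gated cells.

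The gap was smaller for Flt1, at 27.8, 67.1, 51.2 and 81.9 CPM in pericyte-gated cells (2.95 ± 0.22), and for Plvap (4.40). Gja4, called arterial above, stood at 71.9, 68.9, 31.5 and 36.2 CPM in pericyte-gated cells and was not called (2.02, adjusted p = 0.0544). Col4a1 (0.58, adjusted p = 0.121), Nr2f2 (−0.57, adjusted p = 0.0563) and Notch1 (0.29, adjusted p = 0.371) were not called either. These 4 genes, higher in endothelial cells than in the nose at large, were therefore not set apart from pericytes by this test.

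Of the ligands and their receptors, some pairs fell on opposite sides and others on the same side. Pdgfb stood at 52.8, 74.2, 82.2 and 92.6 CPM in endothelial cells against 6.96, 7.26, 19.7 and 14.2 (2.91), while its receptor Pdgfrb stood at 7.62, 1.00, 8.22 and 0 against 255, 223, 449 and 140 (−5.46). Angpt1 stood at 3.39, 1.00, 0 and 0 CPM against 29.0, 23.6, 39.4 and 83.4 (−3.67), opposite to its receptor Tek (6.35). The classes did not overlap for any of these 4 genes, which were picked as ligands and receptors. The share of all genes tested without overlap was not counted. Apln with Aplnr, and Efnb2 (2.45) with its receptor Ephb4 (1.51), were all higher in endothelial cells. Jag1 was higher in pericyte-gated cells, at 27.8, 90.7, 90.6 and 72.4 CPM against 13.3, 7.02, 63.0 and 21.2 (−1.49), and so were the Notch targets Heyl (−7.33) and Hey2 (−3.46), while Mfng was higher in endothelial cells (6.97).

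All 10 further pericyte genes tested and all 10 mesenchyme genes were lower in endothelial cells, among them the contractile genes Acta2 (−6.56) and Tagln (−6.33) and the matrix gene Vtn (−7.09). Of 17 basement membrane genes, 8 were higher and 1, the integrin Itga1 (−2.27), lower. Of 20 cell cycle genes, 4 were lower in endothelial cells, namely Ccnb1 (−1.05), Cenpf (−0.98), Tpx2 (−0.70) and Nusap1 (−0.90). Outside the lists, Parm1 (−6.70), the endothelin receptor Ednra (−6.04), Cox4i2 (−5.83), the nitric oxide sensor subunit Gucy1b1 (−5.54) and the retinoic acid enzyme Aldh1a2 (−5.46) led the pericyte side, and Gimap1 (8.30), Ctla2a (8.25) and Rasgrp3 (8.13) the endothelial side. The whole number of calls was 1861 and fell to 1194 without WT 2.

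Within the endothelial cells, 32 held Prox1 and at least 1 of Lyve1, Flt4, Reln and Mmrn1 and were gated as lymphatic. At least 2 of Gja5, Gja4, Hey1, Dll4, Sox17, Bmx and Sema3g were found in 124 cells. The lymphatic gate took precedence, and 20 of the 32 lymphatic-gated cells also held at least 2 arterial genes (9 of 13 in WT 1, 5 of 10 in WT 2 and 6 of 8 in Prokr2Cre library 1). The 104 cells left with at least 2 arterial genes and outside the lymphatic gate were gated as arterial, which leaves 109 others. Arterial-gated cells made up 47.3% of endothelial cells in WT 1 (exact 95% interval 37.8 to 57.0), 25.0% in WT 2 (14.04 to 38.9), 42.9% in WT 4 (24.5 to 62.8) and 52.9% in WT 5 (27.8 to 77.0). Lymphatic-gated cells made up 11.6% in WT 1 (6.33 to 19.0), 19.2% in WT 2 (9.63 to 32.5) and 3.57% in WT 4 (0.0904 to 18.3), and there was none among the 17 cells of WT 5 (upper bound 19.5%). The intervals overlapped between captures for both classes. With the lymphatic-gated cells included, 62 of 112 cells in WT 1 and 18 of 52 in WT 2 held at least 2 arterial genes. Both gates need detected genes: arterial-gated cells held medians of 33152, 21748 and 12834.5 UMIs in WT 1, 2 and 4, and the remaining cells 10634, 10344 and 5815. The shares move with depth: when the gates were applied after thinning to 2000 UMIs, 15 of 67 endothelial cells (22.4%) were arterial-gated in WT 1, 1 of 41 (2.44%) in WT 2, 4 of 21 (19.0%) in WT 4 and 5 of 12 (41.7%) in WT 5, and 1, 2, 1 and 0 were lymphatic-gated.

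Genes of different vessel classes were counted in the same barcodes. Gja4 was found in 84 endothelial cells and Aplnr in 162, and 38 cells held both. Nr2f2 was found in 139 cells, Prox1 and Gja4 together in 8. Doublets were kept and Prox1 was found, before thinning, in 7.77% of epithelial cells, so these counts are of barcodes and do not show that single cells express both genes.

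Arterial-gated cells were compared with the other blood endothelial cells over WT 1, 2 and 4, because the remaining 8 cells of WT 5 were too few. Calls were 36 of 5223 genes tested higher (0.689%) and 29 lower (0.555%), 1.24% in all. Sox7, the SOXF relative of Sox17, stood at 63.4 CPM in WT 1, 130 in WT 2 and 153 in WT 4, against 13.5, 35.1 and 51.9 in the other cells (1.87 ± 0.29, adjusted p = 4.38e-05). Igfbp3, an IGF binding protein, stood at 252, 463 and 369 CPM against 93.2, 134 and 147 (1.47 ± 0.18, adjusted p = 2.71e-07). The guidance receptor Unc5b stood at 52.3, 39.1 and 120 CPM against 10.8, 14.5 and no UMI (2.23 ± 0.41), with an adjusted p of up to 0.3 when captures were left out in turn. Within each of the 3 captures the arterial-gated value of all 3 genes was the higher.

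Of the 15 further arterial genes, 9 passed the filter on low counts and were tested, Unc5b only through the arterial-gated sums. Of the 9, 2 were called higher, Unc5b and the zinc finger factor Mecom (0.92), and 0 lower. Efnb2 (0.73, adjusted p = 0.0774) and Notch1 (0.92, adjusted p = 0.0819) were not called. Of 9 venous genes, 0 were called higher and 1 lower, Bgn, at 84.7, 48.9 and 45.6 CPM against 137, 155 and 130 (−1.12). Aplnr stood at 132, 153 and 170 CPM in arterial-gated cells against 184, 246 and 225, which did not overlap but were not called (−0.60, adjusted p = 0.0798). Nr2f2 was not called (−0.34, adjusted p = 0.647). Of 26 general genes, Sox7, Cd34 and Cd93 were higher. Stmn2, a microtubule regulator best known from neurons, was higher too, at 64.8, 124 and 53.9 CPM against 25.7, 12.4 and 8.65 (1.99), and 1 endothelial cell held 26 of the 45 UMIs of WT 2. Outside the lists, the genes of at least 50 CPM that kept their call with each capture left out were Igfbp3 on the higher side, and Lars2 (−1.48), the cartilage collagen Col9a3 (−1.34) and Mdk (−1.11) on the lower side.

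The arterial comparison is weak. It rests on 3 captures, the number of calls was 14 without WT 1, 103 without WT 2 and 159 without WT 4, and it was 33 with WT 3 in place of WT 4 and 10 with DESeq2. Without the capture as a block edgeR called 0 genes, with 44 at an unadjusted p under 0.05. Other transcripts moved with the class. The summed mesenchyme list stood at 538, 22.8 and 290 CPM in arterial-gated cells against 1240, 178 and 1400, with 3 members called lower. The summed cartilage list stood at 772, 22.8 and 120 CPM against 958, 554 and 502, with Col2a1 called lower (−1.38), and 1 endothelial cell of WT 2 held 106 of its 119 Col2a1 UMIs. Of the erythroid genes, 3 globin genes were called higher. Hbb-bs, a globin, stood at 2748, 13.0 and 8285 CPM against 75.7, 128 and 17.3, and more than 10000 CPM of globin was found in 2 arterial-gated cells of WT 1 and 1 of WT 4. Their part in the result was not tested.

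Lymphatic-gated cells were compared with all other endothelial cells over WT 1 (13 cells) and WT 2 (10 cells). Calls were 60 of 6766 genes tested higher (0.887%) and 71 lower (1.05%), 1.94% in all. Prox1, the gate gene, stood at 90.8 CPM in WT 1 and 91.7 in WT 2, against 0.668 and no UMI, and carries no test. Flt4 stood at 99.9 and 101 CPM against 33.7 and 37.9, and Mmrn1 at 140 and 169 against 39.4 and 60.7. Flt4 and Mmrn1 were thus also present in endothelial cells outside the gate, and both could open it.

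Of the 15 further lymphatic genes, 9 passed the filter on low counts and were tested. A gene passes when counts suffice in the sums of 1 class, and Pdpn and Ptx3 passed only through the lymphatic-gated sums. Of the 9, 7 were called higher and 0 lower, a tally that this filter fixes in part. Pdpn stood at 21.8 CPM in WT 1 and 19.3 in WT 2, against 1.00 and no UMI in other endothelial cells (4.55 ± 0.86, adjusted p = 2.04e-05). These are 12 and 4 UMIs against 3 and 0, found in 5 endothelial cells of WT 1 and 2 of WT 2, and 1 cell held 7 of the 15 UMIs of WT 1. Ptx3, a pentraxin, stood at 65.4 and 82.0 CPM against 6.01 and 8.85 (3.31 ± 0.39, adjusted p = 2.07e-14), with 11 of the 24 UMIs of WT 2 in 1 cell. The factor Maf stood at 76.3 and 24.1 CPM against 9.35 and 20.2 (2.22), a wide gap in WT 1 and a narrow one in WT 2. Fxyd6 (1.88), Tbx1 (1.41), Stab1 (1.41) and the VEGF-C co-receptor Nrp2 (1.15 ± 0.17) were the other called members, and the valve integrin Itga9 (1.01, adjusted p = 0.0795) and Piezo2 (0.42, adjusted p = 0.494) were not. Pdpn, Maf, Ptx3 and Fxyd6 were lower in endothelial cells as a whole than in the rest of the nose. They were higher in the lymphatic-gated cells than in other endothelial cells, and for Pdpn and Ptx3 the filter left only this direction. Lyve1 had no UMI in the lymphatic-gated cells of WT 1 and stood at 4.83 CPM in WT 2.

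Of 26 general genes, 5 were called lower in the lymphatic-gated cells, 0 higher and 21 not called. None of the 5 arterial gate genes or the 10 further arterial genes tested was called, and the summed arterial gate list stood at 530 and 217 CPM in lymphatic-gated cells against 457 and 216. Flt1 stood at 105 and 212 CPM against 243 and 367 (−1.06), Plvap at 134 and 352 against 256 and 603 (−0.89), and Esam (−0.57), Cd34 (−0.67) and Cd93 (−0.62) were the others. Of 8 venous genes, Nrp2 was higher and Vwf (12.7 and 9.65 CPM against 45.4 and 64.5, −2.13) and Bgn (−1.10) were lower. Nr2f2, at 102 and 174 CPM against 42.7 and 143 (0.76, adjusted p = 0.0945), and Aplnr, at 83.6 and 174 against 145 and 210 (−0.61, adjusted p = 0.181), were not called. Endothelin, Edn1 (−1.84), and Fabp4 (−1.03) were lower.

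Of 20 cell cycle genes, 4 were higher and 0 lower: Top2a stood at 249 and 232 CPM against 138 and 108 (0.90), with Cenpf (1.19), Ube2c (0.80) and Nusap1 (1.21). Outside the lists Kctd12 (2.15), Sgk3 (2.06), the imprinted Nnat (1.86) and Rnf141 (1.69) led the higher genes, and Col9a3 (−6.38), Igfbp5 (−3.08) and Meg3 (−2.48) the lower ones.

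**Figure D4:**
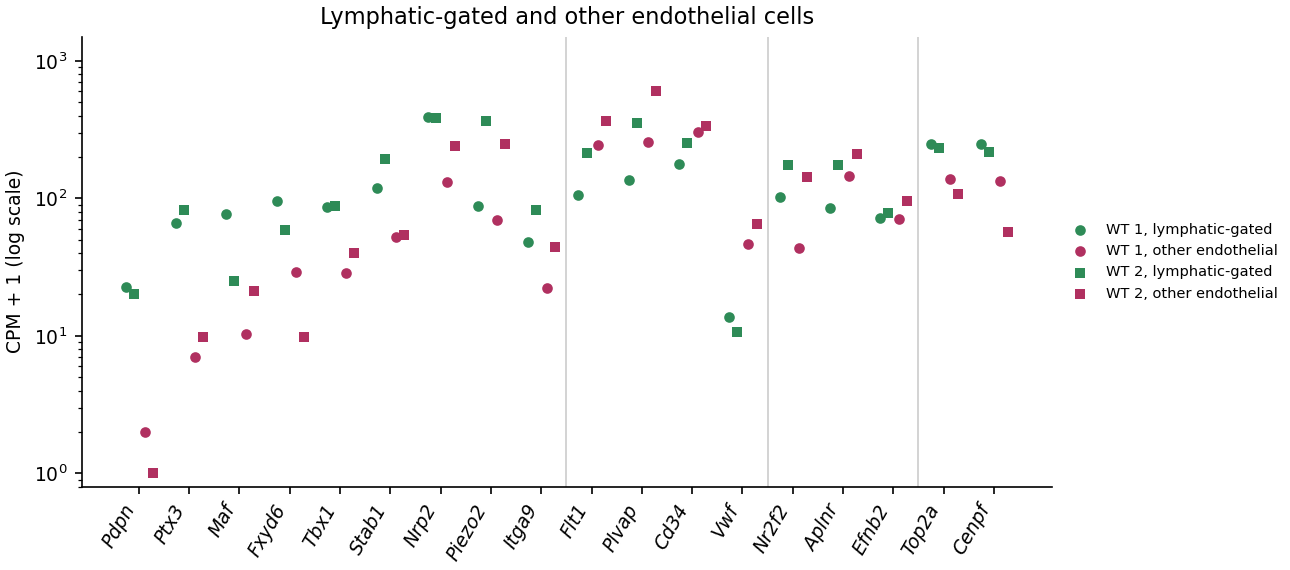
Level of selected genes in lymphatic-gated (green) and other endothelial cells (red) of WT 1 (circles) and WT 2 (squares), as CPM + 1 on a log axis. Pdpn and Ptx3 are higher in the lymphatic-gated cells of both captures, Vwf and Flt1 are lower, and Maf is close to equal in WT 2.

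The lymphatic comparison has 2 captures and 1 residual degree of freedom, so no capture can be left out. DESeq2 called 4 genes, with 85 at an unadjusted p under 0.05, and edgeR without the block called 0, with 110. Cartilage transcripts moved with the class, at 41.8 and 125 CPM in lymphatic-gated cells against 818 and 348, with 6 members lower, and erythroid transcripts at 47.2 and 19.3 CPM against 4540 and 218. Of 5 mesenchyme genes tested, 4 (Col1a1, Col1a2, Col3a1 and Lum) were called lower and 0 higher, with a median log2 fold change of −2.12, while the summed list stood at 38.1 and 265 CPM against 710 and 118, lower in WT 1 and higher in WT 2. Median depth of the lymphatic-gated cells was 30159 UMIs in WT 1 and 22020 in WT 2, against 21249 and 12281.5 in the other endothelial cells. The part of these in the result was not tested.

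The same rule was applied to the Prokr2Cre libraries, from a nose of another strain, with no replicate. Library 1 held 34 endothelial cells of 1789 kept (1.90%, exact 95% interval 1.32 to 2.65) and library 2 held 2 of 1111 (0.180%, 0.0218 to 0.649). Both come from 1 nose, and the labels do not say which was sorted, so the shares describe these libraries. In library 1 the 34 cells included 16 arterial-gated and 8 lymphatic-gated cells. Of 2013 genes called higher in WT endothelial cells and with at least 20 UMIs in library 1, 1930 (95.9%) were higher in its endothelial than in its other cells. Of 4089 genes called lower in the WT, 4023 (98.4%) were lower in library 1. Of all 14248 genes with at least 20 UMIs in library 1, 33.0% were higher in its endothelial cells and 67.0% were not. Its endothelial cells held 5.17% of the UMIs, so a gene at 20 UMIs and equal in both classes would have about 1.03 of them there, and directions of such genes rest on few molecules. In library 2, with 2 endothelial cells, 1192 of 1900 genes called higher in the WT (62.7%) were higher. Of 3983 called lower, 3576 (89.8%) were not higher. Over all 14760 genes with at least 20 UMIs there, 25.8% were higher and 74.2% were not. Its endothelial cells held 0.214% of the UMIs, too few to read directions gene by gene.

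Values in library 1 carry exact Poisson intervals that cover counting error only. Cdh5 stood at 839 CPM (794 to 886) and Egfl7 at 809 (764 to 855), within the WT ranges. Aplnr stood at 224 CPM (201 to 248), Plvap at 532 (496 to 570), Gja4 at 89.4 (75.1 to 106) and Prox1 at 24.0 (16.9 to 33.0). Flt4 stood at 88.8 CPM (74.5 to 105) and Mmrn1 at 83.6 (69.8 to 99.3). The values of Flt4, Aplnr, Prox1 and Mmrn1 lay above the highest WT values of 68.5, 202, 19.0 and 83.2 CPM, and with 1 library these differences were not tested. Lyve1 had no UMI, which allows up to 2.39 CPM.

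The barrier genes that were high in WT 1 were low in library 1, with 0.648 CPM of Spock2, 1.30 of Slco1c1 and no UMI of Mfsd2a. H2-K1 stood at 6.48 CPM (3.11 to 11.9), below all 4 WT values, while H2-D1 stood at 88.1, within them. The strains differ, and strain, genotype and library cannot be told apart. Prokr2, the locus that carries Cre in this animal, had no UMI in the endothelial cells of library 1, which allows up to 2.39 CPM, against 1.84 CPM in its other cells, so no difference was detectable at this depth.

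**Figure D5:**
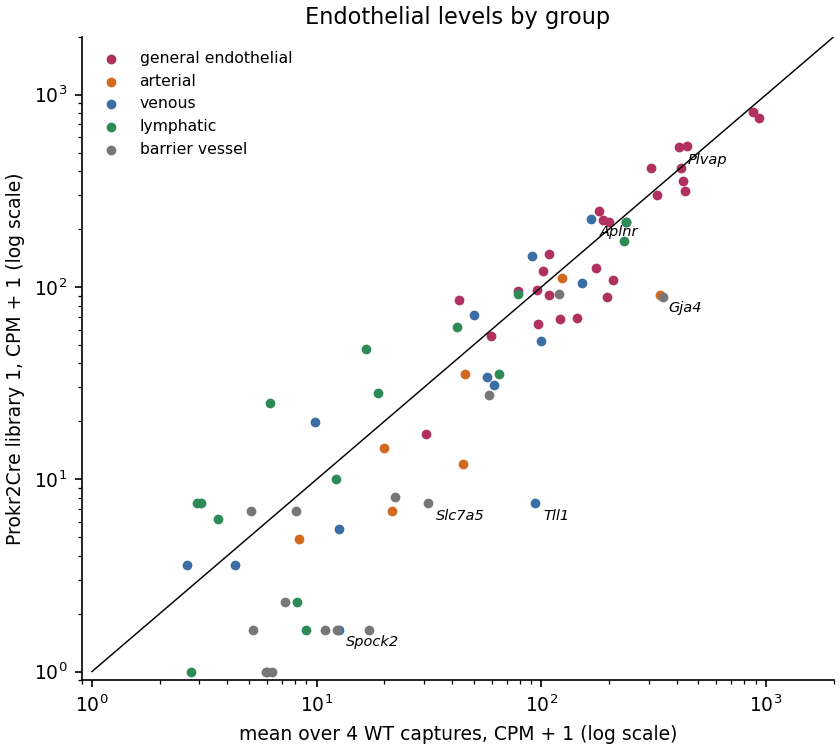
Mean level over the 4 WT captures (x axis) against Prokr2Cre library 1 (y axis) in endothelial cells, as CPM + 1 on log axes, for genes of 5 lists in colours; the diagonal marks equal levels. Most genes lie near the diagonal, Aplnr and Plvap just above it, and Spock2, Tll1, Gja4 and Slc7a5 below it.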

How the data were processed

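Droplet libraries (10x 3′ v3.1) of 7 samples were analysed as the authors deposited them, as raw UMI counts per gene and barcode, without normalization. The submitters' processing notes name mm10, Cell Ranger 4 and Seurat 4.3.0. Per the file headers, counting used Cell Ranger 6.0.1 (WT 1), 7.0.0 (WT 2 to 5) and 6.1.2 (Prokr2Cre). The aligner's treatment of introns and the name of the annotation are not given in the sources used here. Libraries listed either 31053 or 32285 genes. Of the genes listed, 30338 with an identifier common to all libraries and a unique symbol were used, and for this reason Ccl21a, a lymphatic gene whose symbol 2 identifiers share, was not analysed here.

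UMIs were summed per class and WT capture (at least 10 cells) and tested with edgeR 4.0.16 in R 4.3.3 (TMM, filterByExpr, quasi-likelihood, capture as a block, Benjamini-Hochberg over all genes tested, two-sided). Rule, gate and Ptprc genes were left out of the tests of their own comparison. The filter keeps a gene whose counts suffice in the sums of 1 class alone. A gene near absent from the other class could thus be called only 1 way. Classes of the same capture deviated together. Correlations ran from 0.19 to 0.67 for endothelial against other cells and 0.11 to 0.77 against pericytes. They ran from 0.37 to 0.78 for arterial-gated cells and were 0.65 for lymphatic-gated cells. Classes of a capture share suspension, library and counting, which cannot be told apart here. Scrublet (scanpy 1.11.5, Python 3.11.15) marked at most 0.333% of barcodes and had not worked by the 0.5% limit set, so doublets were kept, and an alternative removed those with the highest scores, 24 WT endothelial cells among them. DESeq2 1.42.0, RLE size factors, other filters, gates after thinning to 2000 UMIs and left-out captures were the other alternatives. The scripts were tested on simulated data.

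Any member of a gene list could be named. Outside the lists the names are the largest changes with an adjusted p under 0.05 in every fit with a capture left out (for the lymphatic comparison in the single fit, since no capture could be left out) and at least 50 CPM in each WT capture on the higher side, 20 higher and 5 lower for endothelial against other cells and up to 10 each way elsewhere, passing over predicted, ribosomal and mitochondrial genes. The endothelial cells and the gene lists were chosen with earlier results of these data known. Promoter windows came from RefSeq without chromosome 18, with no entry for Cdh5 and Pecam1 used.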

Additional observations from a re-analysis of the deposited data

Results flagged for a closer look

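Of 96 values checked over the 4 WT captures, 10 had a capture far from the other 3, where chance alone flags about 1 in 20. The measure is the gap to the nearest capture divided by the whole range, set against Dixon's 95% critical value. WT 1 stood out for the share of endothelial cells (1.44%, ratio 0.880), for the summed muscle genes in endothelial cells (96.5 CPM, 0.870, with 148 of 160 Actc1 UMIs in 1 cell) and for the barrier gene Spock2 (42.3 CPM, 0.929). WT 5 was high for Gja4 (965 CPM, 0.834) and the chemokine receptor Cxcr4 (31.7 CPM, 0.880) and low for Maf (2.65 CPM, 0.898). WT 2 was low for Fbln2 (7.01 CPM, 0.849) and high for Cd36, a fatty acid receptor of capillaries (55.1 CPM, 0.868). WT 4 was high for Epas1 (175 CPM, 0.836) and Vcam1 (27.4 CPM, 0.833). WT 5 holds 17 endothelial cells and WT 4 holds 28, so single cells weigh more there.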

How the results depend on the processing

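The 26 general genes kept their direction and their calls under every alternative except the fit without a replicate block, which called 25. Without the replicate block, counts of calls dropped from 6411 to 3971 for endothelial against other cells, from 1861 to 913 against pericytes, from 65 to 0 for arterial-gated and from 131 to 0 for lymphatic-gated cells. Against pericytes the count was 3308 with no filter on low counts, 1212 with gates after thinning and 1194 to 2069 with a capture left out. For arterial-gated cells it was 10 with DESeq2, 111 with no filter, 33 with WT 3 in place of WT 4 and 14 to 159 with a capture left out, and for lymphatic-gated cells 4 with DESeq2. The share of endothelial cells stayed within 1 SD under all alternatives (0.472% to 0.953%). Against other cells the direction turned for Gja1 with at least 2 rule genes (0.47) and for Top2a without the replicate block (0.0009). With DESeq2 it turned for Mfsd2a (−0.12) and Spock2 (−1.38). With captures left out in turn the log2 fold change ran from −0.70 to 0.077 (without WT 2) for Hey1, from −0.045 (without WT 4) to 0.65 for Jag1, from −1.87 (without WT 1) to 2.45 for Mfsd2a, from −1.86 (without WT 1) to 1.37 for Spock2 and from −0.36 to 0.11 (without WT 5) for Top2a. Against pericytes, with gates after thinning, it turned for Col4a1 (−0.21), Id1 (0.14), Notch1 (−0.10) and Robo1 (0.34). For these changes the cause was not tested. Of the genes of the vascular lists and those named, 38 of 240 lost their call against other cells without the block, and 6 with DESeq2. Too few captures were left to fit the arterial comparison after thinning or with 3 gate genes, and the lymphatic one with stricter cell filters, doublets removed, thinning or a capture left out. Leaving out cells with 3 or more macrophage genes was added after seeing the data. Depth is limited by the 17 to 112 endothelial cells of a capture.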
